A study of Mus musculus with 4 samples.

Results

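The genes of the cytosolic ribosome were followed in RNA-seq of primary osteocyte cultures from mice that lack PPARα (αKO) and from control mice (WT), with 2 libraries per genotype. Members were the genes of the deposited count table whose symbol is Rpl or Rps followed by a number, with or without the ending a, l, x or l1, plus Rplp0, Rplp1, Rplp2 and Rpsa. Pseudogene symbols ending in -ps and the S6 kinases were left out, and a mean of at least 100 counts over the 4 libraries was required. This gave 78 genes of the 37411 in the table, 44 of the large subunit, 31 of the small subunit and 3 of the stalk. Of these, 74 carry the names of canonical ribosomal proteins and 4 are named as paralogs (Rpl22l1, Rpl39l, Rpl7l1 and Rps27l). All 78 passed the filter on low counts, which kept 13571 genes.

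The αKO libraries carry the label PPARa KO and the WT libraries PPARa WT. For all 4, the labels give C57BL/6 mice aged 5 months, the osteocyte-enriched fraction of the femur and 6 days of growth ex vivo, with no treatment. The methods of the study instead describe an αKO line on another inbred background, in which a neomycin cassette replaces part of an exon of Ppara, older mice and a longer culture, and a sheet of the deposited workbook names DMSO for both genotypes. The allele is a germline one, so every cell of the culture carries it. Replicates are labelled as biological, but whether each is 1 mouse or a pool was not given in the sources used here.

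The libraries held 25136628 to 27496137 counts. Ppara had 15 and 9 counts in αKO and 16 and 13 in WT osteocytes, and reads of the remaining exons do not check the genotype. Of the osteocyte markers, Sost and Fgf23 were at 0 in all 4 libraries, and of the 5 tested 4 had log2 fold changes below 0 and 1 above. In edgeR's quasi-likelihood test 3 and 1 of them had an unadjusted p under 0.05 (2.59% and 2.81% of all genes). Dmp1 had 23 and 110 counts in αKO and 306 and 455 in WT, whereas Capg, which macrophages also express, had 21362 and 22525 counts in αKO and 11233 and 13371 in WT. All 22 macrophage markers examined had log2 fold changes above 0 (49.2% of all genes had). In 20 of them both αKO libraries were above both WT libraries (17.1% of all genes). By the same test 8 were higher at an unadjusted p under 0.05 (2.81% of all genes) and 0 had an adjusted p under 0.05 (0% of all genes). The 22 summed to 35235 and 29887 CPM (counts scaled to the library size with TMM factors) in αKO against 23411 and 13744 CPM in WT. The largest sum was in αKO replicate 1. Lyz2 alone had 20024 and 14956 CPM in αKO and 14015 and 8516 CPM in WT, so the sums mainly follow this gene. Of 13 osteoblast markers 12 had log2 fold changes below 0 (50.8% of all genes had). Both αKO libraries were below both WT libraries in 6 (16% of all genes). By the same test 5 were lower at an unadjusted p under 0.05 (2.59% of all genes) and 0 had an adjusted p under 0.05. The part of these cell types in the results below was not tested, and bulk libraries cannot tell apart a different number of cells from a different amount of RNA per cell. The word osteocytes stands here for the cultures as labelled, which also held macrophage transcripts.

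Each ribosome is built from ribosomal RNA and one copy of most ribosomal proteins, so cells make these proteins in matched amounts. The small subunit reads the codons of the mRNA, the large subunit joins the amino acids, and the stalk of P proteins on the large subunit recruits the translation factors. The mRNAs of ribosomal proteins start with a run of pyrimidines (the 5′ terminal oligopyrimidine or TOP motif) through which mTORC1 and the RNA-binding protein LARP1 set their translation. Their coding sequences differ in base composition, and this property proved to run with the differences between libraries described below.

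The annotated start sites were searched for the TOP motif. A RefSeq promoter sequence (GRCm38.p6, 250 bases before to 50 after the annotated start) was at hand for 58 of the 78 members, with 69 start sites. Of these start sites, 13 (18.8%) began on a C followed by at least 4 pyrimidines, against 2.51% of all 32851 promoter entries. The annotated start base itself had to be the C, so a run displaced from the annotated start would be missed. The other start sites are therefore not shown to lack the motif. The letters CGGAAG, the core of the site bound by ETS factors such as GABP, were found on either strand in 62.3% of the members' windows and in 16.9% of all windows. AAGATGG, the core of a YY1 site, was found on either strand in 17.4% and 6.34%, and TATATAA in 5.8% and 3.24%. These are matches of letters and not measured binding. The 50 bases around the start (30 before it, 20 from it on) are given for 4 members described below, taken from the 13 with such a run, with the pyrimidine run that opens the transcript in capitals. They lie at chr4:86857348-86857397 (minus strand, Rps6), chr17:33955646-33955695 (minus, Rps18), chr11:114668550-114668599 (plus, Rpl38) and chr7:141447621-141447670 (plus, Rplp2).
Rps6: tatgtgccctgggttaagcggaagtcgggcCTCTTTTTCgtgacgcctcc
Rps18: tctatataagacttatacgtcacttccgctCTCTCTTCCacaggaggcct
Rpl38: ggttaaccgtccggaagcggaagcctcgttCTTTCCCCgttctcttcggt
Rplp2: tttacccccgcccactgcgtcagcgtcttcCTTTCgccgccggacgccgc
The run is 9 bases long in Rps6 and Rps18, 8 in Rpl38 and 5 in Rplp2.

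The coding sequences show the difference in base composition. Coding GC content ran from 39.9% in Rpl22l1 to 61.6% in Rpl36, with a median of 52.6% over the 78 members. The first 60 coding bases (GENCODE M21 transcripts, GRCm38) are given for 2 members of high and 3 of lower GC content, with G and C in capitals.
Rpl36: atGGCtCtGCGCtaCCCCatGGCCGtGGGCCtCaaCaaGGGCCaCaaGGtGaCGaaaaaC
Rplp1: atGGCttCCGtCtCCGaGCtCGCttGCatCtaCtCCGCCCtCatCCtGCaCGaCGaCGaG
Rps24: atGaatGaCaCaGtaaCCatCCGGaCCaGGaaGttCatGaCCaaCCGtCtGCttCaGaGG
Rpl22l1: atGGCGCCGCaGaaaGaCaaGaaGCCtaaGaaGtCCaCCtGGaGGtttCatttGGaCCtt
Rpl5: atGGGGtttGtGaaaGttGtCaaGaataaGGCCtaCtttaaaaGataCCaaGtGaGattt
Of these 60 bases, 36 were G or C in Rpl36, 37 in Rplp1, 30 in Rps24 and in Rpl22l1, and 21 in Rpl5. These genes lie on chromosomes 17, 9, 14, 3 and 5, in that order. The first 60 bases do not always follow the whole coding sequence. Rpl22l1 has a lower coding GC content (39.9%) than Rpl5 (46.0%) but more G and C in this stretch.

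Ribosomal protein transcripts were abundant in all 4 libraries, and WT replicate 1 held the least of them. The members took 2.37% and 2.93% of all counts in αKO replicates 1 and 2, and 1.98% and 2.76% in WT replicates 1 and 2. In the deposited TPM (the authors' library-scaled unit corrected for gene length) they took 6.21% and 7.46% in αKO and 5.24% and 7.45% in WT osteocytes. The median member had 693 and 891 TPM in αKO and 531 and 827 TPM in WT libraries. Thus replicate 2 was above replicate 1 in both genotypes by each of these measures.

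Levels differed widely between members although the proteins are made in matched amounts. Mean TPM over the 4 libraries ran from 58.3 to 2893, a 49.6-fold range, with 30 members above 1000 TPM, 44 between 200 and 1000 TPM and 4 under 200 TPM. The middle of the members lay closer together, with a 25th percentile of 459 and a 75th percentile of 1187 TPM. These levels depend on the gene lengths the authors used, which were not checked here. Rpl22, with a mean of 5930 counts and a GENCODE M21 transcript of 474 bases, had a mean of 268 TPM. Rpl11, with 5974 counts and 833 bases, had 663 TPM. The range and the ranks below therefore hold for the deposited TPM only.

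The highest mean was that of Rplp1, a P protein of the stalk, with 1874 and 4210 TPM in αKO and 542 and 4945 TPM in WT osteocytes. Rpl4, a large-subunit protein that lines the exit tunnel, came next with 2104 and 1835 TPM in αKO and 2324 and 2102 TPM in WT. Rps12 of the small subunit followed with 1745 and 2408 TPM in αKO and 1477 and 2434 TPM in WT. Only Rpl4 of these was steady, and the libraries of Rplp1 spanned the levels of the other 2, so the order of the 3 highest does not hold beyond their spread.

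The lowest mean was that of Rpl13a, a large-subunit protein known in human cells also for translational silencing of inflammatory mRNAs, with 60.5 and 44.7 TPM in αKO and 74.4 and 53.7 TPM in WT. Next came 2 paralogs, Rpl39l with 47.2 and 52.3 TPM in αKO and 102 and 97.0 TPM in WT, and Rpl7l1 with 123 and 108 TPM in αKO and 133 and 116 TPM in WT. Rpl7l1 lay above the other 2 in each library, whereas Rpl13a and Rpl39l overlapped.

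Some of these levels depend on how reads were assigned. Of the 50-base stretches of a member's transcript, a median of 51.9% also occurred in a transcript of another gene of GENCODE M21, from 0% in Rpl39l to 98.6% in Rps27, and in 41 members at least 50% did. Across members, Spearman's rho between this share and log2 mean TPM was 0.06 (n = 78 genes of the same 4 libraries). The 17 pseudogene symbols ending in -ps had at most 49 counts in any library. Many other loci that share such stretches carry names without -ps, and their counts were not examined. Levels of members with many shared stretches are therefore uncertain, and GENCODE also marks Rpl13a as an overlapping locus.

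Of the 83 symbols that fit the naming rule, 5 fell under the count limit. Rpl18, a large-subunit protein, was listed at 0 in all 4 libraries, where 3 counts would be 0.109 to 0.119 CPM, and Rpl24 had 1 count or none in each. The gene model of Rpl24 is overlapped on the same strand by Gm28037. The paralogs Rpl3l, Rpl6l and Rpl10l had means of 1.25, 15.2 and 0 counts. The members just inside the limit were Rpl13a with a mean of 644.8 and Rpl39l with 656.8 counts, far above the 100 required. Both Rpl18 and Rpl24 encode standard proteins of the large subunit, and why their counts were so low was not tested, so no level is drawn from them.

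Most ribosomal protein transcripts were somewhat higher in αKO than in WT osteocytes, but no single one passed the test. The comparison asks which transcripts differ in osteocyte-enriched cultures that lack PPARα. The log2 fold change was above 0 in 68 of the 78 members and below 0 in 10, where 49.2% of all genes tested were above 0. The median over the members was 0.24, and -0.01 over all genes. With library sizes alone in place of TMM 57 of the 78 were above 0, with offsets for GC content and length 50, and without WT replicate 1 also 50, with medians of 0.16, 0.09 and 0.08. None of the 78 had an adjusted p under 0.05 in edgeR's quasi-likelihood test with Benjamini-Hochberg adjustment over all genes (background 0% of 13571 genes tested), with 0.912 as the smallest adjusted value. An unadjusted p under 0.05 was found for 1 member (5.39% of all genes), with 0 members on the higher side (2.81%) and 1 on the lower side (2.59%). By DESeq2, 0 members had an adjusted p under 0.05 (0.259% of genes) and 0 an unadjusted p under 0.05 (4.24%), and by edgeR's likelihood ratio test 0 had an adjusted p under 0.05 (0.206%).

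**Figure D1:**
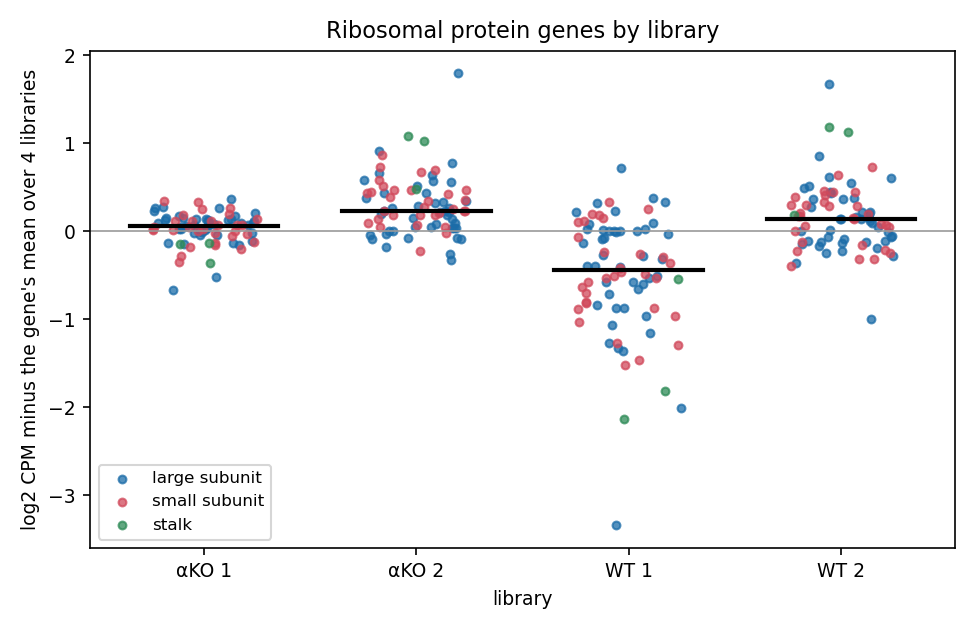
Level of each of the 78 members in each library, as log2 CPM minus the mean of that gene over the 4 libraries (vertical axis), with colour for the subunit and a black line for the median. The medians are 0.06 and 0.24 in αKO replicates 1 and 2, -0.44 in WT replicate 1 and 0.14 in WT replicate 2, and WT replicate 1 has the widest spread.

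No p is given for the summed level of the members, and 2 libraries against 2 cannot give an exact permutation p below 0.3333 (two-sided). The members summed to 24815 and 29715 CPM in αKO and to 18855 and 27289 CPM in WT osteocytes. αKO replicate 1 lay below WT replicate 2, so the genotypes overlapped. The large subunit summed to 12426 and 13787 CPM in αKO and 9850 and 12732 CPM in WT, and the small subunit to 11140 and 13496 CPM in αKO and 8335 and 12207 CPM in WT. Both subunits were thus lowest in WT replicate 1 and highest in αKO replicate 2. The ratio of the large over the small subunit sum was 1.12 and 1.02 in αKO and 1.18 and 1.04 in WT, so it parted replicates 1 from replicates 2 and not the genotypes.

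Both αKO libraries were above both WT libraries in 18 members (23.1%, against 17.1% of all genes) and below them in 2 (2.56%, against 16% of all genes). In 12 of the 18 the lowest library was WT replicate 1 and in 6 it was WT replicate 2. With library sizes alone 7 were separated upwards and 4 downwards, and the shares of all genes with that scaling are not given here. The 2 separated downwards were Rpl39l and Rpl30, and Rpl30 differed little, with 205 and 202 CPM in αKO against 208 and 207 CPM in WT (log2 fold change -0.03).

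In the small subunit, 28 of 31 members were above 0, with a median log2 fold change of 0.24. Rps14, a protein of the platform whose loss underlies the anaemia of 5q- syndrome in humans, had 508 and 581 CPM in αKO and 239 and 445 CPM in WT osteocytes. Both αKO libraries were higher, and WT replicate 1 was far below the other 3. This was 544 ± 52.2 against 342 ± 146 CPM (SD, n = 2), a log2 fold change of 0.67 with a standard error of 0.39 (edgeR quasi-likelihood adjusted p = 1.00). Leaving out WT replicate 1 gave 0.31 and leaving out WT replicate 2 gave 1.15.

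Rps29, a zinc-binding protein of the head, had 122 and 176 CPM in αKO and 33.6 and 118 CPM in WT osteocytes. The genotypes did not overlap, but αKO replicate 1 and WT replicate 2 were close to each other. The log2 fold change of 0.97 was the largest of the 78 members, with a standard error of 0.63. Leaving out WT replicate 2 gave 2.11 (edgeR quasi-likelihood adjusted p = 0.0142), and leaving out WT replicate 1 gave 0.36 (adjusted p = 0.599).

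Rps18, which contacts the large subunit from the head, had 408 and 486 CPM in αKO and 205 and 406 CPM in WT osteocytes, again with WT replicate 1 apart. Its log2 fold change was 0.55 (standard error 0.41). Rps19, the gene most often mutated in Diamond-Blackfan anaemia, had 369 and 478 CPM in αKO and 183 and 387 CPM in WT, with overlap between the genotypes and a log2 fold change of 0.57 (standard error 0.45). Rps6, the S6 kinase substrate downstream of mTORC1, had 186 and 219 CPM in αKO and 153 and 192 CPM in WT, also overlapping, with a log2 fold change of 0.23 (standard error 0.29).

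Rpsa, which doubles as a laminin receptor at the cell surface, had 678 and 818 CPM in αKO and 476 and 847 CPM in WT osteocytes. WT replicate 2 was the highest and WT replicate 1 the lowest of the 4, and the log2 fold change was 0.18 (standard error 0.39). The 2 small-subunit members with the smallest p among those below 0 were Rps2 and Rps4x. Rps2, at the mRNA entry, had 610 and 886 CPM in αKO and 558 and 1213 CPM in WT, so the WT libraries enclosed both αKO libraries. X-linked Rps4x had 557 and 442 CPM in αKO and 650 and 435 CPM in WT, where again the αKO values lay between those of WT. Their log2 fold changes were -0.24 (standard error 0.47) and -0.12 (standard error 0.34).

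In the large subunit, 37 of 44 members were above 0, with a median log2 fold change of 0.22. Rpl26, which in human cells also binds the p53 mRNA, had 354 and 391 CPM in αKO and 261 and 306 CPM in WT osteocytes. Rpl34 had 225 and 262 CPM in αKO and 145 and 209 CPM in WT. In both genes all αKO values lay above all WT values, and the log2 fold changes were 0.40 (standard error 0.28) for Rpl26 and 0.46 (standard error 0.32) for Rpl34. Their adjusted p was 1.00 in edgeR's quasi-likelihood test.

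Rpl5 and Rpl11 form with 5S rRNA the particle that binds MDM2 when ribosome assembly is disturbed, and their values were ordered differently across the libraries. Rpl11 had 251 and 276 CPM in αKO and 156 and 242 CPM in WT osteocytes, with no overlap and a log2 fold change of 0.40 (standard error 0.33). Rpl5 had 190 and 185 CPM in αKO and 217 and 152 CPM in WT, where the WT libraries enclosed both αKO libraries, and a log2 fold change of 0.02 (standard error 0.31). In WT replicate 1 Rpl5 was thus at its highest and Rpl11 at its lowest. The difference between the 2 genes was not tested.

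Rpl38, which in mouse embryos is needed for the translation of Hox mRNAs, had 107 and 137 CPM in αKO and 70.0 and 142 CPM in WT, a log2 fold change of 0.20 (standard error 0.43). Rpl13a had 27.1 and 20.7 CPM in αKO and 28.7 and 22.7 CPM in WT (log2 fold change -0.11, standard error 0.35). Both overlapped between the genotypes. Rpl4 was the steadiest of the 3 most abundant members, with 1294 and 1165 CPM in αKO against 1233 and 1225 CPM in WT, a log2 fold change of 0.00 (standard error 0.29).

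The stalk genes varied more between libraries than between genotypes. Rplp0, the base of the stalk, had 664 and 1022 CPM in αKO and 503 and 834 CPM in WT osteocytes. Rplp1 had 401 and 931 CPM in αKO and 100.1 and 1003 CPM in WT. Rplp2, its partner, had 183 and 479 CPM in αKO and 66.6 and 514 CPM in WT. In all 3, both replicates 2 were above both replicates 1. Their log2 fold changes were 0.33 (standard error 0.41), 0.27 (standard error 1.05) and 0.19 (standard error 0.99) in that order. For Rplp1, leaving out WT replicate 2 gave 2.70 (adjusted p = 0.0158 in edgeR's quasi-likelihood test), whereas leaving out WT replicate 1 gave -0.56 (adjusted p = 0.537). For Rplp2 the same steps gave 2.28 (adjusted p = 0.0287) and -0.61 (adjusted p = 0.539), and leaving out αKO replicate 2 gave -0.44 for Rplp1 and -0.65 for Rplp2, so the direction of both turned without WT replicate 1 and without αKO replicate 2.

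WT replicate 1 was the library that stood apart. It was the lowest of the 4 in 51 of the 78 members (65.4%, against 34.6% of all genes) and the highest in 13 (16.7%, against 31.5% of all genes). αKO replicate 2 was the highest in 42 members (53.8%, against 21.7% of all genes). Both replicates 1 were below both replicates 2 in 39 members (50%, against 26.4% of all genes). In 70 of the 78 members the log2 difference between the WT libraries was larger than that between the genotypes, as it was in 72% of all genes. Single libraries differ more than means of 2 even where nothing has changed.

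The log2 ratio of WT replicate 1 over replicate 2 had a median of -0.56 over the members and ran from -4.99 in Rpl36 to 1.71 in Rpl22l1. The ratio of αKO replicate 1 over replicate 2 had a median of -0.21 and ran from -1.92, again in Rpl36, to 0.39 in Rpl13a. Rpl36, a large-subunit protein, had 1436 and 5154 counts in αKO and 158 and 4949 counts in WT osteocytes, the widest gap between WT libraries of any member. The log2 fold change of 0.42 had a standard error of 1.46. Leaving out WT replicate 2 gave 4.44 (edgeR quasi-likelihood adjusted p = 0.0113), and leaving out WT replicate 1 gave -0.51 (adjusted p = 0.704).

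These ratios followed the base composition shown above. Across the 78 members, Spearman's rho of coding GC content was -0.82 with the WT ratio and -0.53 with the αKO ratio, and 0.63 with the log2 fold change of αKO over WT. These points share the same 4 libraries and no p is given. Over all genes, the GC content of the whole transcript gave -0.73, -0.60 and 0.22, and with that measure the members gave -0.70 for the WT ratio. Coding length gave 0.10 with the WT ratio and the share of sequence common to other genes gave 0.02.

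**Figure D2:**
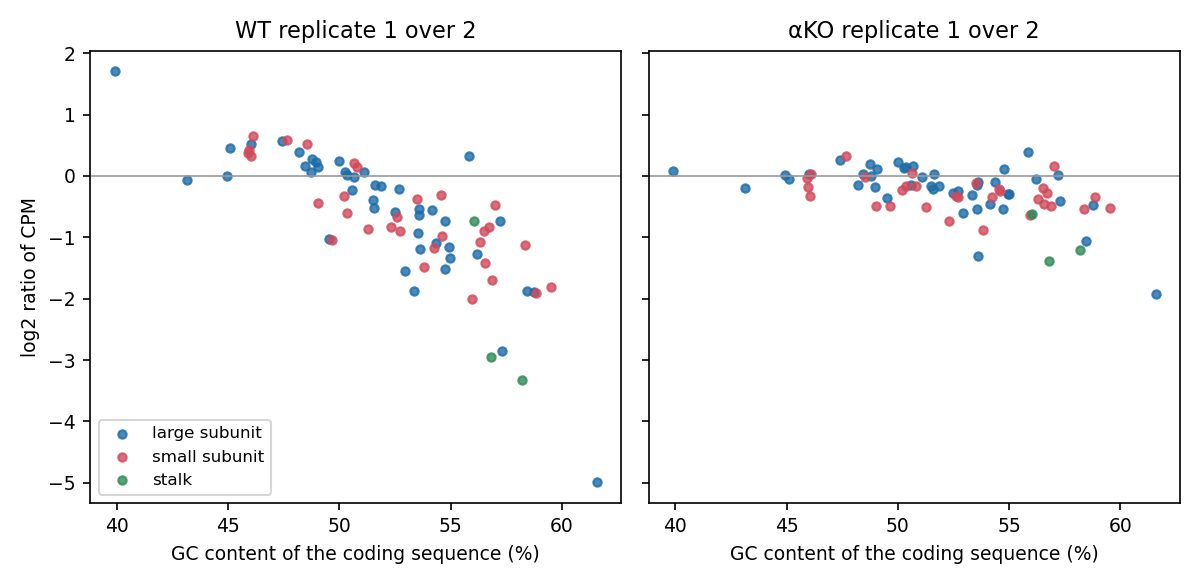
Coding GC content in percent (horizontal axis) against the log2 ratio of replicate 1 over replicate 2 in CPM (vertical axis) for the 78 members, in WT (left) and αKO (right), with colour for the subunit. The WT ratio falls from 1.71 in Rpl22l1 (39.9% GC) to -4.99 in Rpl36 (61.6% GC), and the αKO ratio falls less.

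The members were ranked by coding GC content and divided into 3 equal bins of 26. Those of the lowest bin, up to 50.4% GC, summed to 8089 and 8120 CPM in αKO and to 8212 and 7232 CPM in WT osteocytes. Those of the highest bin, from 54.6% GC, summed to 8155 and 11387 CPM in αKO and to 4273 and 10950 CPM in WT. The low sum of WT replicate 1 thus lay in the middle and highest bins, and in the lowest bin this library was the highest of the 4. The median log2 fold change of αKO over WT was 0.07, 0.30 and 0.40 from the lowest to the highest bin. WT replicate 1 was the lowest library in 5, 21 and 25 members of these bins.

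With an offset for transcript GC content in each library, the median log2 fold change of the members remained at 0.24 and 69 of 78 were above 0. The rho of coding GC content with the log2 fold change was then 0.54, so this relation was lessened and still there. None of the members had an adjusted p under 0.05 in that fit by edgeR's quasi-likelihood test. At an unadjusted p under 0.05, 1 member was higher (4.98% of all genes) and 0 were lower (6.76%).

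Which WT library was kept decided the calls. Without WT replicate 2, 15 members were higher in αKO at an adjusted p under 0.05 by edgeR's quasi-likelihood test (3.78% of 13898 genes were), and none lower. These were Rpl29, Rpl36, Rps29, Rps15, Rplp1, Rpl41, Rps9, Rpl8, Rplp2, Rpl35, Rps26, Rpl13, Rpl27, Rpl37 and Rpl37a, all with a coding GC content of at least 52.9%. Without WT replicate 1, none of the 78 passed (5.74% of 14047 genes passed in either direction). Both fits take the spread from the αKO libraries alone and apply it to the single WT library.

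The 4 paralogs are set beside the genes they are named after. Rpl39l, a paralog of Rpl39 known in mice for its high level in the testis, where it takes the place of Rpl39 in the exit tunnel, was the one member with an unadjusted p under 0.05. It had 445 and 481 counts in αKO and 843 and 858 counts in WT osteocytes, and 17.0 and 19.4 against 31.6 and 33.0 CPM. The genotypes were well apart and the replicates of each were close. The level was 18.2 ± 1.73 CPM in αKO and 32.3 ± 1.03 CPM in WT (SD, n = 2), 1.78-fold lower in αKO. The log2 fold change was -0.83 with a standard error of 0.31 in edgeR's quasi-likelihood fit, and the adjusted p over all genes was 0.912 (unadjusted 0.0447). Leaving out 1 library gave values from -0.92 to -0.74. As both αKO libraries lay below both WT libraries, this step is no check of the direction. With the GC offset the log2 fold change of Rpl39l was -0.77 (unadjusted p = 0.0642 in edgeR's quasi-likelihood test). By DESeq2 its unadjusted p was 0.0575.

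The parent Rpl39 had 73.7 and 76.2 CPM in αKO and 102 and 74.5 CPM in WT osteocytes, with a log2 fold change of -0.24 (standard error 0.30). Rpl39l was at 16.9% and 18.8% of the TPM of Rpl39 in αKO and at 22.8% and 32.6% in WT, so this share did not overlap between the genotypes. The difference between the 2 genes was not tested. Reads can tell the pair apart, as the aligned coding sequences show (153 bases without the stop codon, on chromosomes X and 16, bases that differ in capitals).
Rpl39: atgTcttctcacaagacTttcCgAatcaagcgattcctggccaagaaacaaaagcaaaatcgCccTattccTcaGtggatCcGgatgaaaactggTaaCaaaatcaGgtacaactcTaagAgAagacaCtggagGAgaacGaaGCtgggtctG
Rpl39l: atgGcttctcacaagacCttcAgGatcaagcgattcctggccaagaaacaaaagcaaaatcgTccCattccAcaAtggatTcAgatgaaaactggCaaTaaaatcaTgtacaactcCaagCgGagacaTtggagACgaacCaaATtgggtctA
The pair differed at 23 of 153 bases (85.0% identical), and the longest identical stretch was 38 bases.

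Rpl22l1, a paralog of the RNA-binding protein Rpl22, had 56.9 and 53.9 CPM in αKO and 82.9 and 25.4 CPM in WT osteocytes. The WT libraries enclosed those of αKO and lay 1.71 apart on the log2 scale, in the opposite direction to most members, and it is the member of lowest GC content. Rpl22 itself was steady, with 239 and 235 CPM in αKO and 233 and 208 CPM in WT. The log2 fold changes were 0.03 (standard error 0.59) for Rpl22l1 and 0.10 (standard error 0.27) for Rpl22. In the deposited TPM, Rpl22l1 was at 87.7% and 84.5% of Rpl22 in αKO and at 131% and 44.9% in WT. In counts it was far lower, with 1492 and 1335 in αKO and 2214 and 659 in WT. Rpl22 had 6265 and 5817 counts in αKO and 6230 and 5408 in WT. The GENCODE M21 transcripts have 552 bases for Rpl22l1 and 474 for Rpl22. The TPM shares rest on the gene lengths the authors used, which were not checked here, so no ratio of the 2 genes is drawn.

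Rps27l, a p53-induced paralog of Rps27, had 154 and 193 CPM in αKO and 198 and 158 CPM in WT osteocytes, with full overlap and a log2 fold change of -0.03 (standard error 0.30). Rps27 had 259 and 289 CPM in αKO and 240 and 217 CPM in WT, with no overlap and a log2 fold change of 0.26 (standard error 0.27). Nearly all of Rps27 is shared with other transcripts (above), so its level is uncertain. Rpl7l1 had 139 and 126 CPM in αKO and 130 and 124 CPM in WT, and Rpl7 had 639 and 531 CPM in αKO and 753 and 506 CPM in WT. Neither was separated by genotype, with log2 fold changes of 0.06 (standard error 0.27) and -0.11 (standard error 0.34).

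**Figure D3:**
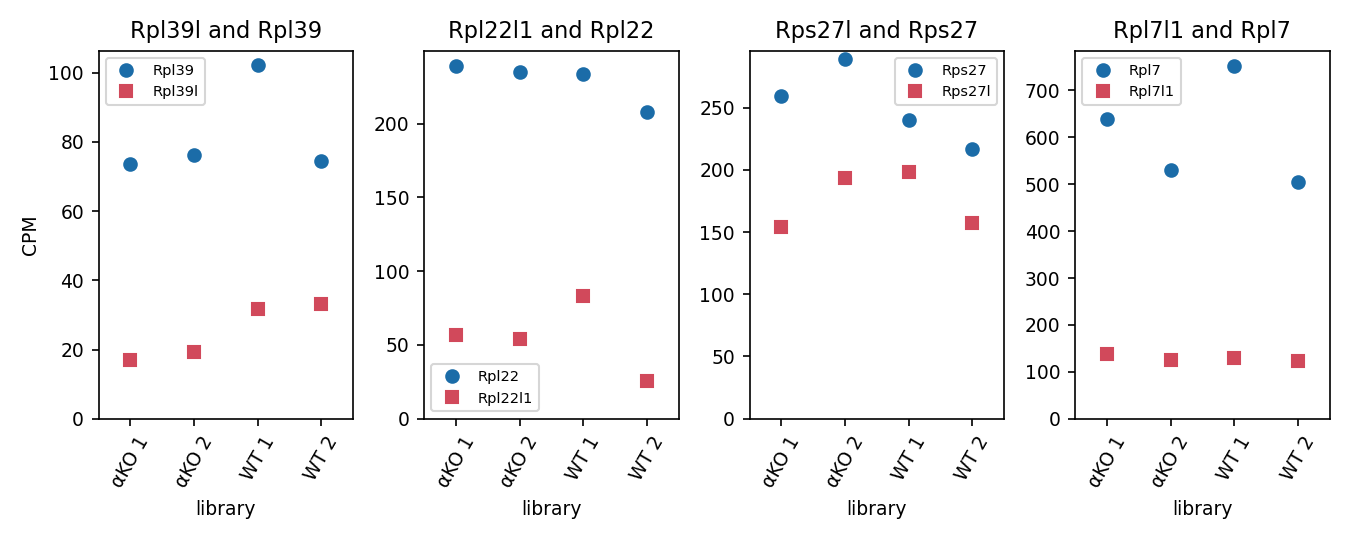
Levels of the 4 paralogs (squares) and of the genes they are named after (circles) in each library, in CPM on linear axes that start at 0. Rpl39l lies at 17.0 and 19.4 CPM in αKO and at 31.6 and 33.0 CPM in WT, whereas Rpl22l1 ranges from 25.4 to 82.9 CPM within WT.

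Ribosomal proteins whose symbols fall outside the naming rule also had a positive median. Of 5 listed and tested, 4 were above 0, with a median log2 fold change of 0.31, and none had an unadjusted p under 0.05 in edgeR's quasi-likelihood test. Fau, which encodes small-subunit protein S30 fused to a ubiquitin-like domain, had 5345 and 8872 counts in αKO and 1958 and 6668 counts in WT osteocytes (log2 fold change 0.77, standard error 0.66). Rpl36al had 2114 and 1857 counts in αKO and 1439 and 1867 counts in WT (log2 fold change 0.31, standard error 0.30). Rps3a1, which also falls outside the rule but was not on that list, had 10563 and 8837 counts in αKO and 12440 and 7865 counts in WT, with overlap and a log2 fold change of -0.02 (standard error 0.34). Fau was lower in replicates 1 than in replicates 2 of the same genotype.

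The factors that assemble ribosomes had a negative median, and none passed the test. Of 66 assembly factors tested (of 70 listed), 59 were below 0 (50.8% of all genes were) and 7 above, with a median log2 fold change of -0.29. Both αKO libraries were below both WT libraries in 26 of them (16% of all genes were) and above in 1 (17.1% of all genes). None had an unadjusted p under 0.05 in edgeR's quasi-likelihood test. The count below 0 was 37 without WT replicate 2 and 55 to 58 without any other library. Nop58, a core protein of the C/D snoRNPs that methylate ribosomal RNA, had 2172 and 1487 counts in αKO and 3587 and 2826 counts in WT osteocytes (log2 fold change -0.77, standard error 0.32). Gnl3, the nucleolar GTPase nucleostemin, had 1751 and 1202 counts in αKO and 2671 and 2070 counts in WT (log2 fold change -0.64, standard error 0.32). In both genes each αKO library had fewer counts than each WT library.

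**Figure D4:**
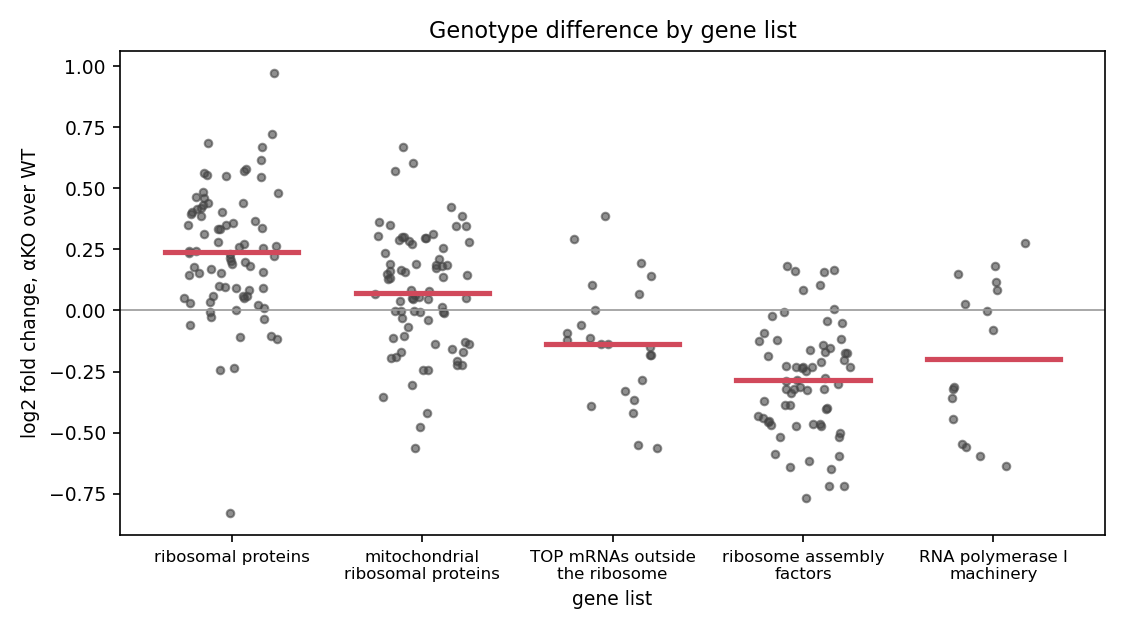
Log2 fold change of αKO over WT (vertical axis) for each gene of 5 lists, with a red line for the median. The medians are 0.24 for the 78 ribosomal proteins, 0.07 for 76 mitochondrial ribosomal proteins, -0.14 for 23 TOP mRNAs outside the ribosome, -0.29 for 66 assembly factors and -0.20 for 16 genes of the RNA polymerase I machinery.

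Other mRNAs that carry a TOP motif, such as elongation factors, had a median below 0. Of 23 tested, 7 were above 0 and 16 below, with a median log2 fold change of -0.14 and none at an unadjusted p under 0.05 in edgeR's quasi-likelihood test. Gas5, a TOP RNA that hosts snoRNAs, had 1598 and 1633 counts in αKO and 2585 and 2345 counts in WT osteocytes (log2 fold change -0.56, standard error 0.27). Vim, which encodes the intermediate filament vimentin, had 64760 and 74055 counts in αKO and 72342 and 137110 counts in WT (log2 fold change -0.55, standard error 0.43). Gas5 was lower in both αKO libraries, and Vim was high in 1 WT library only.

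RNA polymerase I makes the ribosomal RNA precursor, and 10 of 16 genes of its machinery were below 0, with a median log2 fold change of -0.20. Rrn3, the initiation factor that couples the polymerase to growth signals, had 1487 and 1065 counts in αKO and 2248 and 1843 counts in WT osteocytes (log2 fold change -0.64, standard error 0.31). Polr1e, a subunit, had 356 and 313 counts in αKO and 465 and 575 counts in WT (log2 fold change -0.59, standard error 0.35). Both were lower in each αKO library than in each WT library, with p above 0.05.

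The dedicated chaperones that escort single ribosomal proteins to the nucleolus gave 6 of 7 below 0 (median -0.16). Heatr3, which escorts Rpl5 in human cells, had 1394 and 1206 counts in αKO and 1963 and 1798 counts in WT osteocytes (log2 fold change -0.49, standard error 0.28), and Pdcd2, which binds Rps2, had 454 and 482 counts in αKO and 565 and 632 counts in WT (log2 fold change -0.31, standard error 0.33). Of 20 regulators of TOP mRNAs and of mTORC1, 15 were below 0 (median -0.10), and none had an unadjusted p under 0.05. Eif4ebp2, a repressor of cap-dependent translation, had 1465 and 1324 counts in αKO and 1040 and 1244 counts in WT (log2 fold change 0.33, standard error 0.30). Myc, which activates ribosome genes, had 1168 and 1419 counts in αKO and 1270 and 2175 counts in WT (log2 fold change -0.37, standard error 0.39).

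The ribosomal proteins of mitochondria had a smaller median than those of the cytosol. Of 76 tested, 47 were above 0 and 29 below, with a median log2 fold change of 0.07 against 0.24 in the cytosolic members, and the difference between the lists was not tested. Their log2 ratio of WT replicate 1 over replicate 2 had a median of -0.22, against -0.56 in the cytosolic members. The SD of this ratio over the genes was 0.75 in the mitochondrial list and 1.03 in the cytosolic members. The summed level was 2621 and 3030 CPM in αKO and 2400 and 2949 CPM in WT osteocytes, with the same order of the 4 libraries as in the cytosolic members.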

How the data were processed

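RNA of 2 αKO and 2 WT osteocyte cultures was sequenced. Per the labels, the authors used Trimmomatic 0.35 for trimming, HTSeq 0.9.1 for counts per mm10 gene and DESeq2 1.16.1 in R 3.4.0. The aligner, the annotation release and the strand setting were not given in the sources used here, so antisense overlaps cannot be told apart. The deposited raw counts were compared with edgeR 4.0.16 (quasi-likelihood, filterByExpr with a minimum count of 10, TMM, no covariates, Benjamini-Hochberg over 13571 genes) in R 4.3.3. CPM are TMM-scaled. The deposited TPM, made by the authors, served only to compare levels between genes. The deposited normalized counts and the authors' sheet of fold changes and p-values were not used. Alternatives were DESeq2 1.42.0, limma 3.58.1 (voom), edgeR's likelihood ratio test, other scalings, no filter, offsets for GC content and length, a replicate block and leaving out each library.

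GC content, lengths and coding sequences came from GENCODE M21 (GRCm38), promoters from RefSeq (GRCm38.p6). The scripts were tested on simulated data. The members and gene lists were chosen with earlier results of these data known. Genes named with values were the 5 higher and 5 lower members of smallest p, the 3 highest and 3 lowest by TPM, paralogs with their parents, stalk genes, Rpl5, Rpl11, Rps6, Rpsa, Rps19, Rpl38 and Rpl13a, the members next to the count limit and the 2 genes of smallest p per related list. Rpl36, Rpl30 and the 15 members called without WT replicate 2 were named after their values were seen. With 2 cultures per genotype, p-values measure only the spread between these libraries.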

Additional observations from a re-analysis of the deposited data

How the results depend on the processing

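The median log2 fold change of the members was above 0 under every alternative run, from 0.08 without WT replicate 1 to 0.53 without WT replicate 2, and 50 to 69 of 78 members were above 0. With each library left out in turn, 0 to 15 members had an adjusted p under 0.05, 0 to 32 were higher and 0 to 2 lower at an unadjusted p under 0.05. The 1 member lower at an unadjusted p under 0.05, Rpl39l, became 0 with DESeq2, the likelihood ratio test, the GC offset and a mean count of at least 1000, the last because Rpl39l is under it. Members higher at that p were 1 with the GC offset (4.98% of all genes). With the GC offset and the replicate block together it was also 1 (6.87% of all genes). Both αKO libraries were above both WT libraries in 7 members with library sizes alone and in 29 with the GC offset. They were below them in 4 with library sizes alone and in 10 with offsets for GC content and length. The shares of all genes in these settings are not given here, so these counts are no result about the members. The cause was not tested.

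Leaving out 1 library moved the count of assembly factors below 0 between 37 and 58, and the median of the ribosomal proteins outside the naming rule between 0.14 and 0.57. It also turned the direction of 45 of the 78 members. The log2 fold changes of those whose levels are given above ran, gene by gene, over these ranges: Rps2 -0.67 to 0.39, Rpl22l1 -0.62 to 1.15, Rpl7l1 -0.011 to 0.14, Rps27l -0.23 to 0.16, Rps4x -0.42 to 0.22, Rpl13a -0.32 to 0.091, Rpl7 -0.40 to 0.23, Rplp1 -0.56 to 2.70, Rplp2 -0.65 to 2.28, Rpl39 -0.48 to 0.032, Rpl22 -0.017 to 0.21, Rpl5 -0.25 to 0.33, Rpl38 -0.19 to 0.77, Rpsa -0.16 to 0.62, Rpl36 -0.83 to 4.44, Rpl4 -0.077 to 0.087, Rps12 -0.099 to 0.70. Directions also turned for Rpl22l1 (-0.069) and Rpl7l1 (-0.027) with library sizes alone, for Rps27l with the GC offset (0.055) and with the GC offset and replicate block (0.034), and for Rpl22 (-0.11) and Rps27 (-0.076) with offsets for GC content and length.

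The replicate numbers mark no shared litter, batch or day in the labels. Deviations from the genotype means of equally numbered libraries correlated with r = 0.49 over 13571 genes, with only 2 pairs. With the replicate number as a block, 6 members were higher at an unadjusted p under 0.05 (6.76% of all genes) against 0 without it, and 0 had an adjusted p under 0.05.

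Every member had a mean of at least 644.8 counts.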
